A study of Mus musculus with 4 samples.

Results

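The NF-κB subunits and inhibitors were followed here as 10 genes, taken by their symbols from the 55401 genes of the deposited gene table. They are the 5 subunit genes Nfkb1, Nfkb2, Rel, Rela and Relb, the 3 inhibitor genes Nfkbia, Nfkbib and Nfkbie, the kinase gene Ikbkb and the negative regulator gene Tnfaip3. Each symbol stood for exactly 1 gene, and all 10 genes passed the filter on low counts. RNA of follicular B (FOB) cells was compared between 2 libraries from WT and 2 from Hnrnpf bKO mice, to learn how the loss of the RNA-binding protein hnRNP F affects the transcriptome of B cells. The Hnrnpf bKO mice were Hnrnpf fl/fl and carried a Cre recombinase active in the B lineage, which deletes exon 4 of Hnrnpf there. The labels call the other group WT, and the paper uses this name for Hnrnpf fl/fl mice without Cre. The loss of Hnrnpf and the presence of the Cre allele therefore cannot be told apart in this comparison. Mice of both groups were on the C57BL/6 background, the labels give an age of 7 weeks for each library, and no treatment is named. The cells were sorted from spleen as B220+CD93-CD23highCD21low.

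NF-κB proteins are dimers of Rel family subunits. In resting cells the inhibitors of the IκB family hold the dimers in the cytoplasm. Signals from the B cell receptor, from Toll-like receptors and from CD40 activate the IκB kinase complex, which marks the inhibitors for destruction and frees the dimers to enter the nucleus. A second route, driven by CD40 and the BAFF receptor, processes the p100 precursor encoded by Nfkb2 and releases p52 with RelB. B cells depend on both routes for their survival and activation, and several inhibitor genes are themselves induced by NF-κB.

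Counts summed to between 15698567 and 18908963 per library. The targeted gene Hnrnpf was at 5780 and 6634 counts in WT against 1167 and 1194 in Hnrnpf bKO, with some signal left in both knockout libraries. The 12 follicular B cell markers summed to between 20930 and 21401 CPM (counts scaled to the library total) in every library, with 3 higher and 4 lower past the test. The 7 T cell markers summed to at most 46.8 CPM, and the NK, erythroid, plasma cell, germinal center and transitional B cell lists had at most 1 gene past the test, Cd93. Cd93, whose protein the sort selected against, was higher in Hnrnpf bKO. It was at 138 and 222 counts in WT, against 261 and 354 (log2 fold change 0.85, adjusted p = 0.00661 from edgeR's test). Cd24a (−0.11) and Vpreb3 (−0.10) of the same transitional list were below 0 and did not pass. Of the 7 myeloid markers, S100a8 and S100a9 were higher in Hnrnpf bKO, and the list summed to 21.6 and 25.7 CPM in WT against 27.7 and 39.9 in Hnrnpf bKO. The 6 marginal zone markers summed to 1535 and 1331 CPM against 1115 and 1120, with 3 lower and 1 higher past the test. Most of this sum is Cr2 (a mean of 993 CPM in WT and 717 in Hnrnpf bKO), which the follicular list also holds. The lower calls of Dtx1 and S1pr3 and the higher call of Cd1d1 were each lost with a library left out, and S1pr3 also with DESeq2 (adjusted p = 0.219). In the follicular list, the lower call of Pax5 and the higher call of Fcer2a were lost with a library left out too. With the replicate number as a block in edgeR's fit, Dtx1 (adjusted p = 0.0756), S1pr3 (0.0751), Pax5 (0.0869) and Fcer2a (0.0716) did not pass, while Cd1d1 did (0.0316). No marker of these lists was at 0 in all 4 libraries. In RNA of sorted cells in bulk, fewer cells of a type and less RNA per cell cannot be told apart. Whether the libraries came from separate mice is not stated, so the spread between them may be technical.

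Windows around annotated transcription starts were searched for the κB consensus of 10 bases, the DNA element that NF-κB dimers bind, to show which of the genes carry the pathway's own element at their start. A window reached from 250 bases before to 50 bases after a RefSeq start (GRCm38.p6), and 7 of the 10 genes had at least 1 window. Nfkb1, Relb and Ikbkb had no window under their symbol and were not searched. A match on either strand was found for 5 of these 7 genes (71.4%), Nfkb2, Rel, Nfkbia, Nfkbie and Tnfaip3, against 9.55% of 27025 genes with a window. Over single windows, some of which overlap, 7 of 10 held a match against 8.46% of 32851. Rela and Nfkbib had windows without a match. The 130 bases before the start are shown for each gene with a match, from the first window of Nfkb2 and of Tnfaip3, 5′ to 3′ along the gene, in lower case with the matches in capitals.
Nfkb2, chr19:46304607-46304736, plus strand: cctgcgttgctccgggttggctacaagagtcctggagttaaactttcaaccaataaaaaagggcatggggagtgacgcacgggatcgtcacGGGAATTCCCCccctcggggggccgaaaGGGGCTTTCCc
Rel, chr11:23770970-23771099, minus strand: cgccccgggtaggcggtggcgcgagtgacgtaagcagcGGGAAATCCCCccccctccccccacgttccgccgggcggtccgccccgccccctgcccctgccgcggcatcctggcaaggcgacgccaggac
Nfkbia, chr12:55492648-55492777, minus strand: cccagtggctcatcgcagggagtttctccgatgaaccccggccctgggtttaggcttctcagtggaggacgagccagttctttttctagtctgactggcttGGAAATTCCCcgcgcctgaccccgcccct
Nfkbie, chr17:45555570-45555699, plus strand: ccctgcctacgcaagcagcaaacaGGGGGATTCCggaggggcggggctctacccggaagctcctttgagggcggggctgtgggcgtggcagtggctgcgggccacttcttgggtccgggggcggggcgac
Tnfaip3, chr10:19015411-19015540, minus strand: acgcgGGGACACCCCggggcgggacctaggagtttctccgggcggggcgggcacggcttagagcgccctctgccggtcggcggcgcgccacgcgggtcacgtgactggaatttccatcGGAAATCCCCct
Positions of the first base of a match are counted from the transcription start, with negative values before it. In the first window of Nfkb2, overlapping matches began at −39 and −38, and another began at −11. Its second window held matches at −236 and 10. The third window overlaps the second, and its match at −225 is the same site as that at 10. Rel had overlapping matches at −92 and −91. The match of Nfkbia began at −29 and that of Nfkbie at −106. Tnfaip3 had matches at −125 and −12 of its first start and none around its second. These are letters in a reference window and no measurement of binding.

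**Figure D1:**
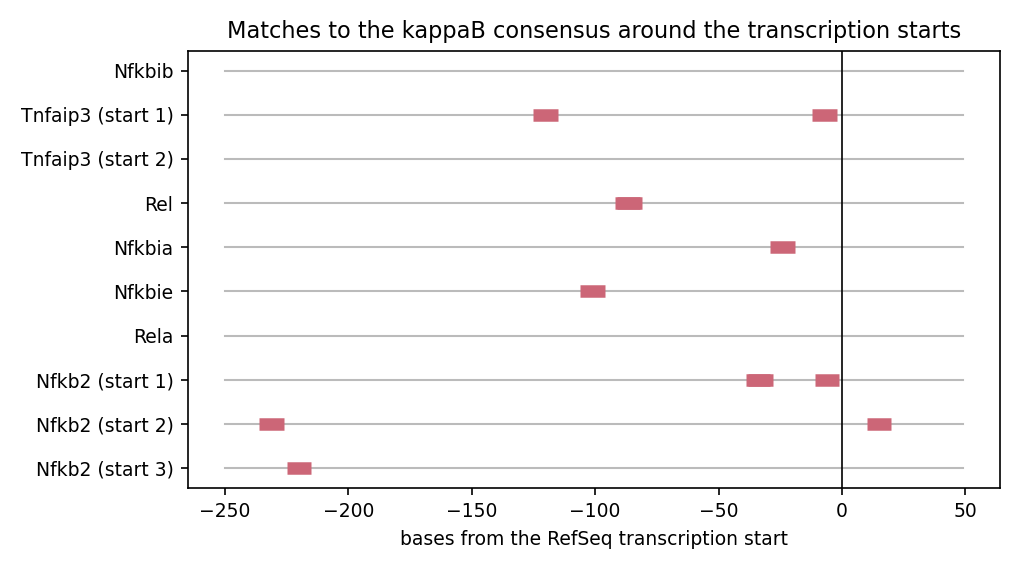
Red blocks mark matches to the κB consensus along windows from 250 bases before to 50 bases after each RefSeq transcription start (horizontal axis, bases from the start, vertical line at the start), with 1 row per window. Nfkb2, Rel, Nfkbia, Nfkbie and Tnfaip3 hold matches, and the rows of Rela, Nfkbib and the second start of Tnfaip3 are empty.

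In mRNA abundance, 0 of the 10 genes passed an adjusted p of 0.05 between Hnrnpf bKO and WT FOB cells (edgeR's quasi-likelihood test, Benjamini-Hochberg), where 6.97% of the 14123 tested genes passed (4.15% higher and 2.83% lower). With a fold change of at least 2 required as well, the number was again 0, against 0.899% of tested genes. At an unadjusted p under 0.05, 2 of the 10 genes passed, Nfkbia and Ikbkb, which is near the 20.3% of all tested genes. DESeq2 called 0 of the 10 genes as well, beside 5.11% of the genes it tested. Limma-trend also called 0, but it called only 0.332% and 0.302% of its genes with the 2 pseudocounts. Its 0 therefore says little about these 10 genes. With no filter on low counts, 1 of the 10 genes passed, beside 6.2% of all genes tested in that way. The absolute log2 fold change was at most 0.16, with standard errors between 0.05 and 0.07. All 95% intervals of the fold change lay between 0.806 and 1.17. The median log2 fold change was −0.08 over the 10 genes and −0.0023 over all tested genes, with 3 of the 10 values above 0 and 7 below. Both Hnrnpf bKO libraries lay on one side of both WT libraries for 8 of the 10 genes, against 50.1% of all tested genes. They lay above for Nfkb2 and Nfkbia and below for Nfkb1, Rela, Nfkbib, Nfkbie, Ikbkb and Tnfaip3. The smallest two-sided p of an exact permutation test of 1 gene is 0.333 with 2 libraries against 2. Below, log2 fold changes are those of Hnrnpf bKO over WT, with the standard error (SE) after the ± sign and the adjusted p of edgeR's test.

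**Figure D2:**
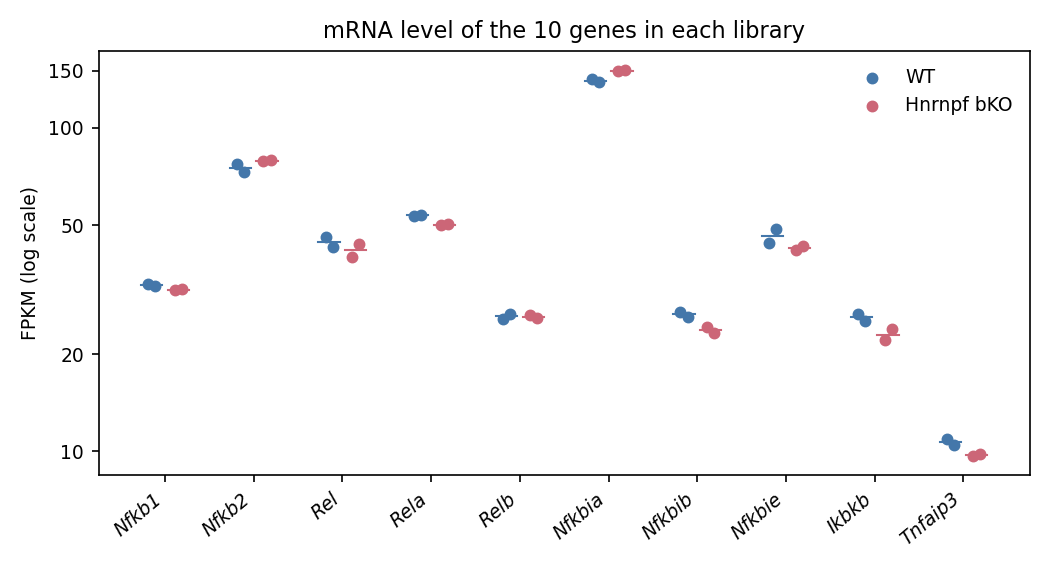
Points show the level of each gene in each of the 4 libraries (vertical axis, FPKM as deposited, log scale; blue, WT; red, Hnrnpf bKO), and short lines show the mean of the 2 libraries of a group. Nfkbia is the highest at 138 to 151 FPKM and Tnfaip3 the lowest at 9.70 to 10.9, and the gap between genotypes is small beside the differences between genes.

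Among the subunits of the classical route, Nfkb1, which encodes p105 and its product p50, was at 6499 and 7392 counts in WT, against 5961 and 6931 in Hnrnpf bKO. In FPKM, the count per kilobase of exons scaled to the library total, its level was 32.7 ± 0.375 in WT and 31.6 ± 0.219 in Hnrnpf bKO (mean ± SD, n = 2 each). Both Hnrnpf bKO values were just under both WT values. The log2 fold change was −0.03 ± 0.05 (SE, adjusted p = 0.743). Rela encodes p65, the main activating partner of p50. It was at 2692 and 3133 counts in WT, against 2412 and 2807 in Hnrnpf bKO, or 53.8 ± 0.269 and 50.3 ± 0.382 FPKM. The groups did not overlap, with a log2 fold change of −0.08 ± 0.05 (SE, adjusted p = 0.403). Rel encodes c-Rel, an activating subunit that is prominent in lymphocytes. Its counts were 5620 and 6039 in WT, against 4680 and 5895 in Hnrnpf bKO, or 44.4 ± 2.28 and 41.8 ± 2.65 FPKM. The groups overlapped, since the second Hnrnpf bKO library lay above the second WT library on the FPKM scale (43.7 against 42.8). This amounted to a log2 fold change of −0.07 ± 0.06 (SE, adjusted p = 0.542).

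Of the subunits of the CD40 and BAFF receptor route, Nfkb2 was at 5823 and 6319 counts in WT, against 5672 and 6578 in Hnrnpf bKO. Its FPKM values were 77.6 and 72.9 in WT, against 78.8 and 79.4 in Hnrnpf bKO, so both Hnrnpf bKO libraries were on top, with a gap to the nearest WT library that was smaller than the gap between the WT libraries. Its log2 fold change was 0.08 ± 0.05 (SE, adjusted p = 0.407). Relb, whose protein pairs with p52, was at 1636 and 1961 counts in WT, against 1606 and 1815 in Hnrnpf bKO. The groups overlapped, with 25.7 and 26.7 FPKM in WT against 26.3 and 25.8 in Hnrnpf bKO. The log2 fold change of 0.0041 was the smallest of the 10 genes (standard error 0.06, adjusted p = 0.981), and its 95% interval of the fold change ran from 0.919 to 1.09. Its sign changed with limma-trend and when WT replicate 1 or Hnrnpf bKO replicate 1 was left out.

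Nfkbia encodes IκBα, the inhibitor that is destroyed first on stimulation and then made anew under the control of NF-κB itself. It was at 3723 and 4207 counts in WT, against 3784 and 4394 in Hnrnpf bKO, or 141 and 138 FPKM against 150 and 151. Both Hnrnpf bKO libraries lay above both WT libraries. The log2 fold change of 0.12 had a standard error of 0.05, an unadjusted p of 0.0369 and an adjusted p of 0.207 from edgeR's test, and the adjusted p ranged from 0.198 to 0.494 over the alternatives. The 95% interval of the fold change ran from 1.01 to 1.17. Immediate early genes, which are transcribed within minutes of a stimulus or of stress, were also read in these libraries. Of 9 tested genes of this list, 3 were lower in Hnrnpf bKO (Fos, Junb and Ier2) and 0 higher, although Fos did not pass with DESeq2 (adjusted p = 0.272), without WT replicate 1 (0.0953) or without Hnrnpf bKO replicate 1. The 11 genes summed to 416 and 381 CPM in WT and 307 and 320 in Hnrnpf bKO. Their part in the values of Nfkbia and Tnfaip3 was not tested.

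The other 2 inhibitors lay on the opposite side. Nfkbib encodes IκBβ, a slower relative of IκBα, and was at 956 and 1071 counts in WT, against 827 and 908 in Hnrnpf bKO. Its level was 26.5 ± 0.587 FPKM in WT and 23.7 ± 0.799 in Hnrnpf bKO, without overlap, and the log2 fold change was −0.15 ± 0.07 (SE, adjusted p = 0.285). Nfkbie encodes IκBε and was at 2192 and 2797 counts in WT, against 2006 and 2382 in Hnrnpf bKO. Its level was 46.3 ± 3.24 FPKM in WT and 42.6 ± 0.933 in Hnrnpf bKO. The lower WT library, at 44.0 FPKM, was nearer to the higher Hnrnpf bKO library, at 43.3, than to the other WT library, at 48.6. On the log2 scale the difference was −0.11 ± 0.06 (SE, adjusted p = 0.350).

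Ikbkb encodes IKKβ, the catalytic subunit that phosphorylates the inhibitors in the classical route. Its counts were 8313 and 9127 in WT, against 6610 and 8238 in Hnrnpf bKO. In FPKM the values were 26.6 and 25.3 in WT, against 22.1 and 23.9 in Hnrnpf bKO, so that the groups did not overlap. The fold change was 0.892 with a 95% interval from 0.821 to 0.969, a log2 fold change of −0.16 ± 0.06 (SE, unadjusted p = 0.0109, adjusted p = 0.101 from edgeR's test). The difference was the largest of the 10 genes with all 4 libraries, but without Hnrnpf bKO replicate 1 it was −0.10, against −0.18 for Nfkbib, and without WT replicate 1 it was −0.12, against −0.17 for Nfkbie. Of the 10 genes this one alone crossed the threshold under any alternative. The adjusted p was 0.0213 with no filter on low counts and 0.0492 without Hnrnpf bKO replicate 2, but 0.503 without Hnrnpf bKO replicate 1 and 0.129 with DESeq2. Tnfaip3 encodes A20, an enzyme that edits ubiquitin chains and ends NF-κB signaling. It was at 1288 and 1429 counts in WT, against 1100 and 1283 in Hnrnpf bKO, or 10.7 ± 0.304 and 9.76 ± 0.0849 FPKM, without overlap. The log2 fold change was −0.12 ± 0.07 (SE, adjusted p = 0.354).

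**Figure D3:**
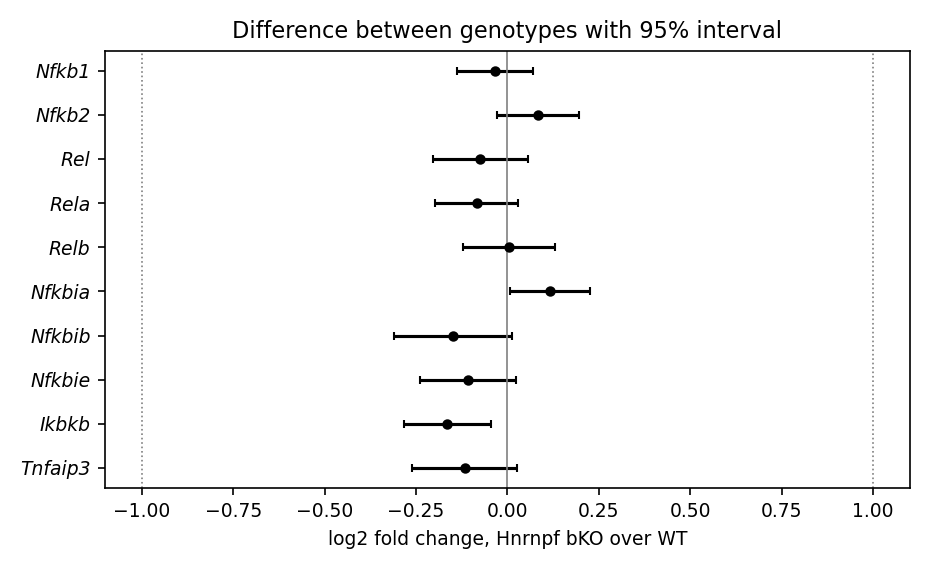
Points show the log2 fold change of Hnrnpf bKO over WT for each gene and bars its 95% interval from edgeR's fit (horizontal axis, log2 scale; dotted lines at a 2-fold change). Every interval lies between −0.31 and 0.23, and those of Nfkbia, above 0, and Ikbkb, below 0, leave out 0.

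Levels of different genes can be set side by side only per length. In FPKM over all 4 libraries, Nfkbia was highest with 145 ± 6.27 (mean ± SD, n = 4), at rank 268 of all genes in the table. Nfkb2 followed with 77.2 ± 2.95 FPKM and Rela with 52.0 ± 2.02. Nfkbie (44.5 ± 2.88) and Rel (43.1 ± 2.51) overlapped across libraries and could not be ordered. Nfkb1 came next with 32.2 ± 0.651 FPKM. Relb (26.2 ± 0.440) overlapped with Nfkbib (25.1 ± 1.71), and Nfkbib with Ikbkb (24.5 ± 1.95). Tnfaip3 was lowest with 10.2 ± 0.559 FPKM, at rank 5192.

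This order depended on the length by which the counts were divided. The deposited FPKM uses all exonic bases of a gene, which are 19078 for Ikbkb with 14 annotated transcripts, 7 of them with a retained intron, and 12061 for Nfkb1 with 10 transcripts, 4 of them with a retained intron. The longest coding transcripts of these genes have 3977 and 4117 bases. Divided by the longest coding transcript instead, a scale added after the data were seen, the levels were 148 ± 6.40 length-scaled counts for Nfkbia, 117 ± 9.38 for Ikbkb, 94.2 for Nfkb1 (92.2 to 96.5 over the libraries) and 92.0 ± 3.52 for Nfkb2. Ikbkb thereby moved from place 9 to place 2, and Nfkb1 from place 6 to place 3, where it overlapped with Nfkb2. The counts divided were still those of the whole gene, so reads outside the longest coding transcript can raise these levels. Rela (58.8 ± 2.28) overlapped with Nfkbie (55.6 ± 3.59), and Relb (46.0 ± 0.780) with Rel (43.1 ± 2.51). Nfkbib (26.4 ± 1.81) and Tnfaip3 (16.7 ± 0.916) were lowest on this scale. Fold changes between genotypes are not touched by the choice of length.

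**Figure D4:**
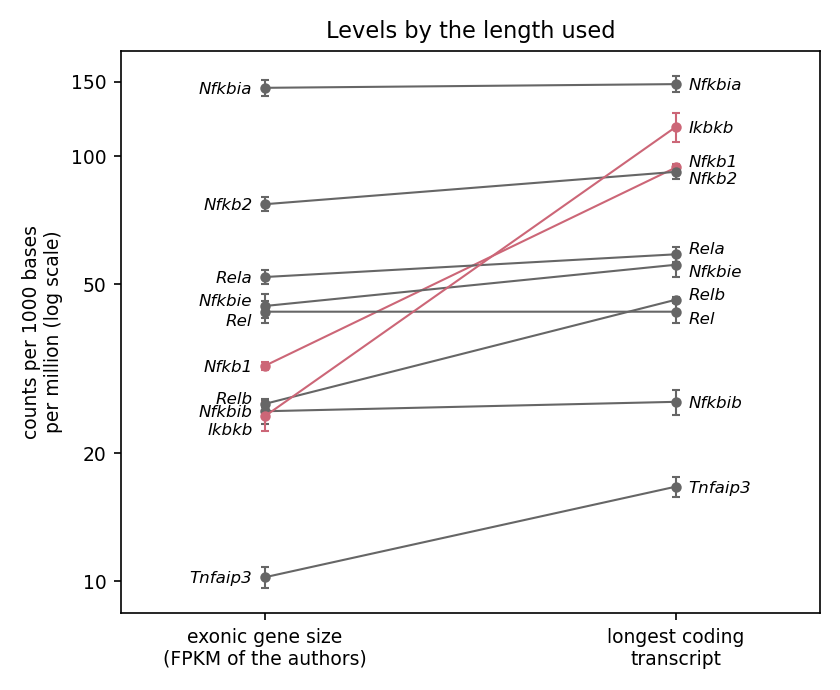
Points show the mean of all 4 libraries and bars the SD for each gene (vertical axis, counts per kilobase scaled to the library total in the manner of FPKM, log scale), with the exonic gene size of the deposited FPKM on the left and the longest coding transcript on the right. Ikbkb and Nfkb1, in red, rise from 24.5 to 117 and from 32.2 to 94.2, while Nfkbia stays at 145 and 148.

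Summed in FPKM, the 5 subunits reached 236 and 229 in WT, against 227 and 231 in Hnrnpf bKO, and these values overlapped. The 3 inhibitors summed to 212.3 and 213 in WT, against 216 and 217 in Hnrnpf bKO. The ratio of inhibitors to subunits was 0.900 and 0.931 in WT, against 0.953 and 0.940 in Hnrnpf bKO, a difference of 0.0314 in the means. Both Hnrnpf bKO libraries were above both WT libraries, but the nearest libraries of the groups differed by less than the 2 WT libraries did. Without Nfkbia among the inhibitors the difference was −0.0238. The size of the ratio depended on the length used. With the longest coding transcript it was 0.668 and 0.689 in WT, against 0.702 and 0.696 in Hnrnpf bKO. Within the subunits, Nfkb2 took 32.9% and 31.9% of the summed FPKM in WT and 34.8% and 34.3% in Hnrnpf bKO. Rela took 22.7% and 23.6% in WT, against 22.1% and 21.9% in Hnrnpf bKO. The shares of Rel, Relb and Nfkb1 lay within ranges of 17.6% to 19.5%, 10.9% to 11.7% and 13.7% to 14.2% over the 4 libraries. These shares hold for the exonic gene size only. Per longest coding transcript, Nfkb1 (94.2) overlapped with Nfkb2 (92.0), above Rela (58.8), Relb (46.0) and Rel (43.1). These ratios and shares are descriptions without a test.

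In GRCm38 the 10 genes lie apart from each other, on 8 chromosomes. Nfkb1 (ENSMUSG00000028163) is at chr3:135584655-135691547, minus strand. Nfkb2 (ENSMUSG00000025225) is at chr19:46304320-46312385 and Rela (ENSMUSG00000024927) at chr19:5637483-5648130, both on the plus strand. Rel (ENSMUSG00000020275) is at chr11:23736847-23770970 and Nfkbia (ENSMUSG00000021025) at chr12:55489410-55492647, both on the minus strand. Relb (ENSMUSG00000002983) is at chr7:19606217-19629438 and Nfkbib (ENSMUSG00000030595) at chr7:28758251-28767512, both on the minus strand. Nfkbie (ENSMUSG00000023947) is at chr17:45555703-45563169, plus strand. Ikbkb (ENSMUSG00000031537) is at chr8:22659212-22706589 and Tnfaip3 (ENSMUSG00000019850) at chr10:19000910-19015657, both on the minus strand. The span from start to end of some genes overlaps that of a neighbor on the other strand. The shared bases below are of these spans, and whether exons overlap was not examined. Whether the counting used strand is not given in the sources used here. Nfkb2 shares 299 bases with Psd (between 1249 and 1618 counts) and 1292 with 4833438C02Rik (between 237 and 345 counts). Nfkbib shares 778 bases with Sirt2, which was at 1397 and 1570 counts in WT, against 1275 and 1473 in Hnrnpf bKO. The other partners, Ccer2 beside Nfkbib, Gm15346 beside Ikbkb and Gm43430 on the strand of Nfkb1, had at most 9 counts in any library.

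The splicing table lists 1556 events in 1173 genes that passed the authors' own thresholds, and 0 of the 10 genes has a row in it, where 8.22% of the 14123 tested genes have one. Events under those thresholds were not analysed here, so an absent row does not show unaltered splicing. Of 63 further tested genes of the pathway, 6 had rows, which is near that share, and they are named as a description. Cd40, the receptor of T cell help, had 5 rows, 3 of skipped exons, 1 of a retained intron and 1 of mutually exclusive exons. Chuk, which encodes the kinase IKKα, had 1 row of a skipped exon and 1 of an alternative 5′ splice site. Traf3, whose protein restrains the second route by keeping its kinase NIK low, had 2 rows of skipped exons. Map3k7 (the kinase TAK1) and Traf2 (an adaptor of TNF receptors) each had 1 row of an alternative 5′ splice site, and Rnf31 (a subunit of the linear ubiquitin ligase) had 1 of a retained intron. In abundance none of the 6 genes passed the test. Their log2 fold changes were −0.08 for Cd40, −0.13 for Chuk, −0.13 for Traf3, −0.03 for Map3k7, −0.02 for Traf2 and −0.05 for Rnf31.

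Around the 10 genes, the 67 pathway genes were read in 6 lists, of which 63 genes were tested. Of these, 4 were higher and 5 lower past the adjusted p of 0.05 and none by 2-fold, beside the 4.15% and 2.83% of all tested genes. The median log2 fold change of the 63 genes was −0.0058. None of the 3 further IκB-like genes, Bcl3, Nfkbid and Nfkbiz, passed. Bcl10, Malt1 and Prkcb, which link the B cell receptor to the IκB kinases, did not pass either, with log2 fold changes of 0.02, −0.17 and −0.15. Of 9 kinase genes, Ikbke was higher and the other 8 did not pass. Ikbke encodes IKKε, an IKK-related kinase of innate sensing, and was at 726 and 819 counts in WT, against 1018 and 1169 in Hnrnpf bKO. This amounted to a log2 fold change of 0.57 ± 0.07 (SE, adjusted p = 0.000522), and both Hnrnpf bKO libraries were above both WT libraries. Of 19 regulators that work through ubiquitin, Tnip2 was higher and 18 did not pass. Tnip2 encodes a partner of A20, and its counts went from 874 and 1123 to 1112 and 1344, or 0.38 ± 0.08 on the log2 scale (SE, adjusted p = 0.00986).

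Of 10 tested receptor genes, 2 were lower and 8 did not pass. The log2 fold changes of the 10 were below 0 for 7 and above 0 for 3, between −0.86 and 0.11. The lowest was that of a gene that did not pass. Both genes that passed encode receptors for the survival factor BAFF and its relatives. Tnfrsf13c, the BAFF receptor that feeds the second route, was at 6192 and 7386 counts in WT, against 4740 and 5200 in Hnrnpf bKO. Its level was 188 ± 4.19 FPKM in WT and 144 ± 4.91 in Hnrnpf bKO, or −0.37 ± 0.05 on the log2 scale (SE, adjusted p = 0.000713). Tnfrsf13b, which encodes TACI, had 5058 and 6514 counts against 4398 and 4586, or −0.28 ± 0.06 on the log2 scale (SE, adjusted p = 0.0157). Its call was lost without WT replicate 2 (adjusted p = 0.0960) and without Hnrnpf bKO replicate 2 (0.0750). The sum of the marginal zone markers, given above, was also lower in both Hnrnpf bKO libraries, and its part in these values was not tested.

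Of 18 tested target genes, 2 were higher, 3 lower and 13 did not pass. The 3 that fell encode cytokines of the TNF family. Tnf was at 432 and 579 counts in WT, against 267 and 341 in Hnrnpf bKO, or −0.66 ± 0.11 on the log2 scale (SE, adjusted p = 0.00340). Lta, lymphotoxin α, had 721 and 867 counts against 492 and 597, or −0.47 ± 0.08 on the log2 scale (SE, adjusted p = 0.00454). Ltb, lymphotoxin β, was the most abundant of them at 441 ± 14.4 FPKM in WT and 368 ± 23.0 in Hnrnpf bKO, with a log2 fold change of −0.25 ± 0.05 (SE, adjusted p = 0.0142) that was not called without Hnrnpf bKO replicate 1 (0.151). Myc, a growth regulator, was at 1500 and 1992 counts in WT, against 1966 and 2140 in Hnrnpf bKO. Its groups overlapped in raw counts but not once scaled to library size, and the log2 fold change was 0.32 ± 0.07 (SE, adjusted p = 0.0146). The call of Myc was lost without WT replicate 1 (0.0956) and without Hnrnpf bKO replicate 1 (0.0686). Bcl2a1d, of the survival family A1, was at 159 and 155 counts in WT, against 219 and 279 in Hnrnpf bKO, or 0.73 ± 0.15 on the log2 scale (SE, adjusted p = 0.0102). It has near-identical copies between which reads can be split, so its value is uncertain, and the copy Bcl2a1b had a log2 fold change of 0.13 and did not pass. The log2 fold changes of the 13 target genes that did not pass lay between −0.66 and 0.17. The lowest was that of Cd80, with 49 and 51 counts in WT against 31 and 29 in Hnrnpf bKO (SE 0.32, adjusted p = 0.264). The summed myeloid markers were higher and the summed immediate early genes lower in both Hnrnpf bKO libraries, as given above. Not every myeloid marker rose, and the part of these sums in the values of the target genes was not tested. With limma-trend on FPKM, none of the 9 pathway genes named as higher or lower passed (adjusted p between 0.0634 and 0.174).

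**Figure D5:**
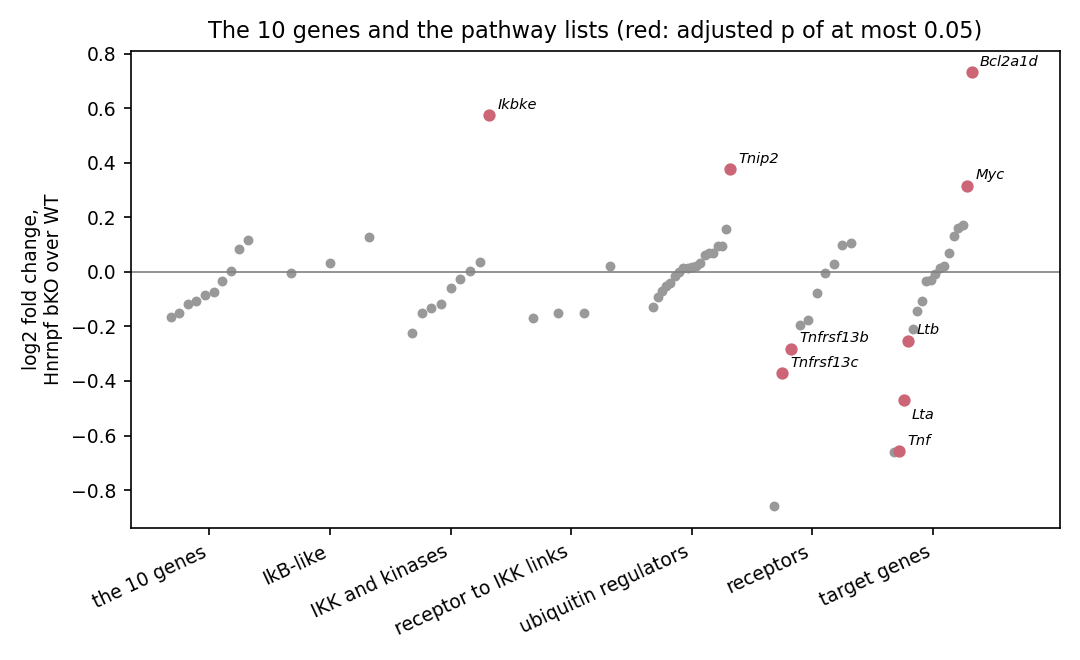
Each point is the log2 fold change of 1 tested gene (vertical axis, Hnrnpf bKO over WT) for the 10 genes and the 6 pathway lists, sorted by value within each. Red points passed an adjusted p of at most 0.05 and are named, and the points of the 10 genes, all gray, lie between −0.16 and 0.12.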

How the data were processed

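Poly(A) RNA was sequenced from 2 WT and 2 Hnrnpf bKO libraries, grouped by the genotype in their labels. The authors trimmed reads with Cutadapt 1.9.1, aligned them to GRCm38 with HISAT2 2.0.1 and counted them with HTSeq 0.6.1. The deposited counts are whole numbers per gene and library without normalization. The deposited FPKM values divide each count by exonic gene size and library total. The strand setting and the annotation release are not given in the sources used here. The authors' splicing table (rMATS) gives an FDR and an inclusion level difference per event, which are their own comparison and were not used. Its rows and event types were counted.

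Counts were compared with edgeR 4.0.16 in R 4.3.3 (TMM, filterByExpr, quasi-likelihood F test, Benjamini-Hochberg adjustment over the 14123 genes left). The genes named are all 10 members of the family, Hnrnpf, and from the pathway lists each gene past an adjusted p of 0.05 or with a splicing row. Neighbors with overlapping spans, marker genes past the test and genes named for not passing were chosen after their values were seen. The members and the lists were chosen with earlier results of these data known. Alternatives were DESeq2 1.42.0, RLE size factors, no filter or a stricter one (10 counts in every library), limma-trend (limma 3.58.1) on FPKM with pseudocounts of 0.1 and 1 in genes averaging at least 0.5 FPKM, each library left out, a block for the replicate number, an adjusted p of 0.01 and a fold change of 1.5. The scripts were tested on simulated data. Tables were joined in Python 3.11.15 with pandas 2.3.3. Gene coordinates are those of the deposited table and were the same in GENCODE M21 for 10 of 10 genes, transcripts are from GENCODE, and promoter windows are from RefSeq (GRCm38.p6). Protein sequences were not used here. Some genes of the lists are not reported here by name. The biological coefficient of variation was 5.90%, and the depth was between 15698567 and 18908963 counts per library, which put at least 827 counts behind each of the 10 genes in each library.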

Additional observations from a re-analysis of the deposited data

How the results depend on the processing

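Of 110 values of the log2 fold change of the 10 genes under the alternatives, 104 kept their sign and their side of the threshold. The exceptions were Ikbkb, which passed under 2 of them, and Relb, whose value was −0.0067 and −0.0065 with limma-trend on log2(FPKM + 0.1) and log2(FPKM + 1) and between −0.016 and 0.030 with each library left out. With each library left out, the log2 fold change ranged from −0.15 to −0.0047 for Rel, from −0.17 to −0.035 for Nfkbie (nearest 0 without WT replicate 2), from −0.23 to −0.10 for Ikbkb, from −0.047 to −0.018 for Nfkb1 and from 0.038 to 0.14 for Nfkb2, in each case more than 1.5 times from the value with all 4 libraries at one end. The number of the 10 genes past the adjusted p was 0, but 1 with no filter on low counts and between 0 and 1 with each library left out. The cause was not tested. With the replicate number as a block in the fit, 0 of the 10 genes and 8 of the 63 pathway genes passed (612 genes in all, against 985), and Tnfrsf13b was lost (adjusted p = 0.0546). The correlation of the deviations of libraries with the same number was −0.0903 over 9875 genes, so the samples were treated as sharing only a number. Limma-trend on log2(FPKM + 0.1) and on log2(FPKM + 1) called 0 and 0 of the pathway genes, and 45 and 41 genes in all, while DESeq2 called 9 and 621. No filter gave 13 pathway genes, and each library left out gave between 7 and 10. The difference of the ratio of inhibitors to subunits was −0.0238 without Nfkbia among the inhibitors, 0.0204 with the length of the longest coding transcript and between 0.0160 and 0.0468 with each library left out. Each of the 10 genes had at least 827 counts in each library, whereas Ltbr, Ccl3, Ccl4 and Ier3, with at most 8 counts in any library, were not tested.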
